A study of Mus musculus with 4 samples.

Results

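The genes described here are 35 genes of the B lineage, the cells of bone marrow that mature from pro-B and pre-B cells to B cells and plasma cells, read in RNA from mouse knee cartilage. They were taken as a named list with no threshold on their values, chosen with earlier results of these data known, and all 35 were found among the 24421 rows of the deposited count table. The tissue was the thin surface layer of articular cartilage on the medial femoral condyle, the inner joint face of the thigh bone, taken 8 weeks after surgery from 2 C57BL/6J mice called M04 and M05. Each mouse gave 1 sham-operated knee and 1 knee whose medial meniscus had been destabilised (DMM), an operation that leads to osteoarthritis, so there were 2 DMM and 2 sham libraries. The sample labels call all 4 wild type, while the series' design text calls the M05 samples knockout without naming a gene, and M05 against M04 is therefore reported as a difference between 2 animals. The free text of both sham samples speaks of a DMM knee, and their titles and treatment field were followed instead.

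B cells are made in bone marrow. Pro-B cells cut and rejoin the segments of the immunoglobulin heavy-chain gene with the RAG recombinase, and pre-B cells test the new heavy chain in a pre-B cell receptor, where a surrogate light chain of VpreB and lambda5 stands in for the light chain still to be made. The receptor signals through CD79A and CD79B, which stay with the B cell receptor on mature cells. B cells show antigen to T cells on MHC class II molecules, and plasma cells, which secrete antibody, lose most of this programme.

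Vpreb1 and Vpreb2, the genes for the VpreB part of the surrogate light chain, are shown first because their likeness limits how far their counts can be read apart. Over the 429 coding bases of the GENCODE M21 transcripts they differed at 9 positions, an identity of 97.9%. Of the 660 stretches of 100 bases in the Vpreb2 transcript, 100 bases being the length of a read here, 97 (14.7%) occur unchanged in Vpreb1. Each row held a count that was not a whole number in 1 library. Such counts are not particular to the pair, and Fcer2a had them in 4 libraries. The first 300 coding bases of Vpreb1 and Vpreb2 are printed 5′ to 3′, with the 4 bases that differ in capitals.
Vpreb1: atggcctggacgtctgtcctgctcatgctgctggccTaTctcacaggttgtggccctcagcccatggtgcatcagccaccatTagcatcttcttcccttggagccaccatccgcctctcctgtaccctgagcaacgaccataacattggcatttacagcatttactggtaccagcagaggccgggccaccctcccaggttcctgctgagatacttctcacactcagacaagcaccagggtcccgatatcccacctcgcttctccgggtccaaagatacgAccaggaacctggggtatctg
Vpreb2: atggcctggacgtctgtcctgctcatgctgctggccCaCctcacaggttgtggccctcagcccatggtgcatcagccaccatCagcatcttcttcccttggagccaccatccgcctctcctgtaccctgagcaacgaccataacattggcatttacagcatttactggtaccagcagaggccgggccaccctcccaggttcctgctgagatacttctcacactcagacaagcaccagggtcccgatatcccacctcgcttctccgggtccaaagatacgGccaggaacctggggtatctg

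Total counts were 12712425 to 19336628 per library. Levels below are TMM-normalised CPM, counts scaled to a common library size, unless FPKM is named, and each set of 4 values gives the sham and then the DMM knee. Transcripts of other cell types were present in every library, and no gene found of the cell-type lists in this paragraph was at 0 in any. Erythroid genes, with 11 found, had the largest sums of these lists. For M04 they reached 246157 (sham) against 187976 (DMM), for M05 320216 (sham) against 260945 (DMM), so each DMM knee was lower. Haemoglobin genes (Hba-a1, Hba-a2 and Hbb-bs) were the highest among them. The 13 chondrocyte genes found summed to 6232 and 7175 in M04 and 1733 and 5449 in M05. Those of neutrophils and granulocytes, also 13, summed to 44994 and 44493 in M04 and 72012 and 63880.5 in M05, and those of macrophages and monocytes, 12 in number, to 4641 and 4678 in M04 and 5986 and 5299 in M05. Among the 4, the sham library of M05 was thus lowest in chondrocyte and highest in neutrophil transcripts. The 12 T cell genes found summed to 73.6 and 72.6 in M04 and 56.0 and 64.3 in M05 and the 9 dendritic cell genes to 101 and 88.5 in M04 and 95.7 and 95.1 in M05. Cd79a, Cd79b, Ms4a1 and Pax5, which mark B cells, were present in every library. Among the row names were none of 12 immunoglobulin constant genes looked for, so antibody transcripts were not analysed here. In bulk RNA, fewer cells of a type and less RNA per cell cannot be told apart.

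Measured per length, in the authors' FPKM, class II and receptor genes were the most abundant members. Cd74, the invariant chain that guards the class II groove, had 1029 ± 119.6 FPKM (SD over all 4 libraries, n = 4). The class II chains H2-Aa (417 ± 15.6 FPKM) and H2-Ab1 (261 ± 19.7 FPKM) followed, then Cd79a (209 ± 5.93 FPKM), Cd79b (170.1 ± 16.7 FPKM) and the class II chain H2-Eb1 (158 ± 10.3 FPKM). Cd79b and H2-Eb1 overlapped between libraries, and so did the next in order, the tetraspanin gene Cd37 (137 ± 15.9 FPKM) and Vpreb3 (134 ± 10.8 FPKM), which encodes a partner of newly made heavy chains. At the other end stood Rag1 (1.42 ± 0.666 FPKM), the transcription factor gene Bach2 (1.38 ± 0.395 FPKM), Rag2 (1.05 ± 0.387 FPKM) and the complement receptor gene Cr2 (0.564 ± 0.337 FPKM), which overlapped with each other. Every member had counts above 0 in all 4 libraries, with 20 at the least, for Cr2 in the DMM library of M05.

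**Figure D1:**
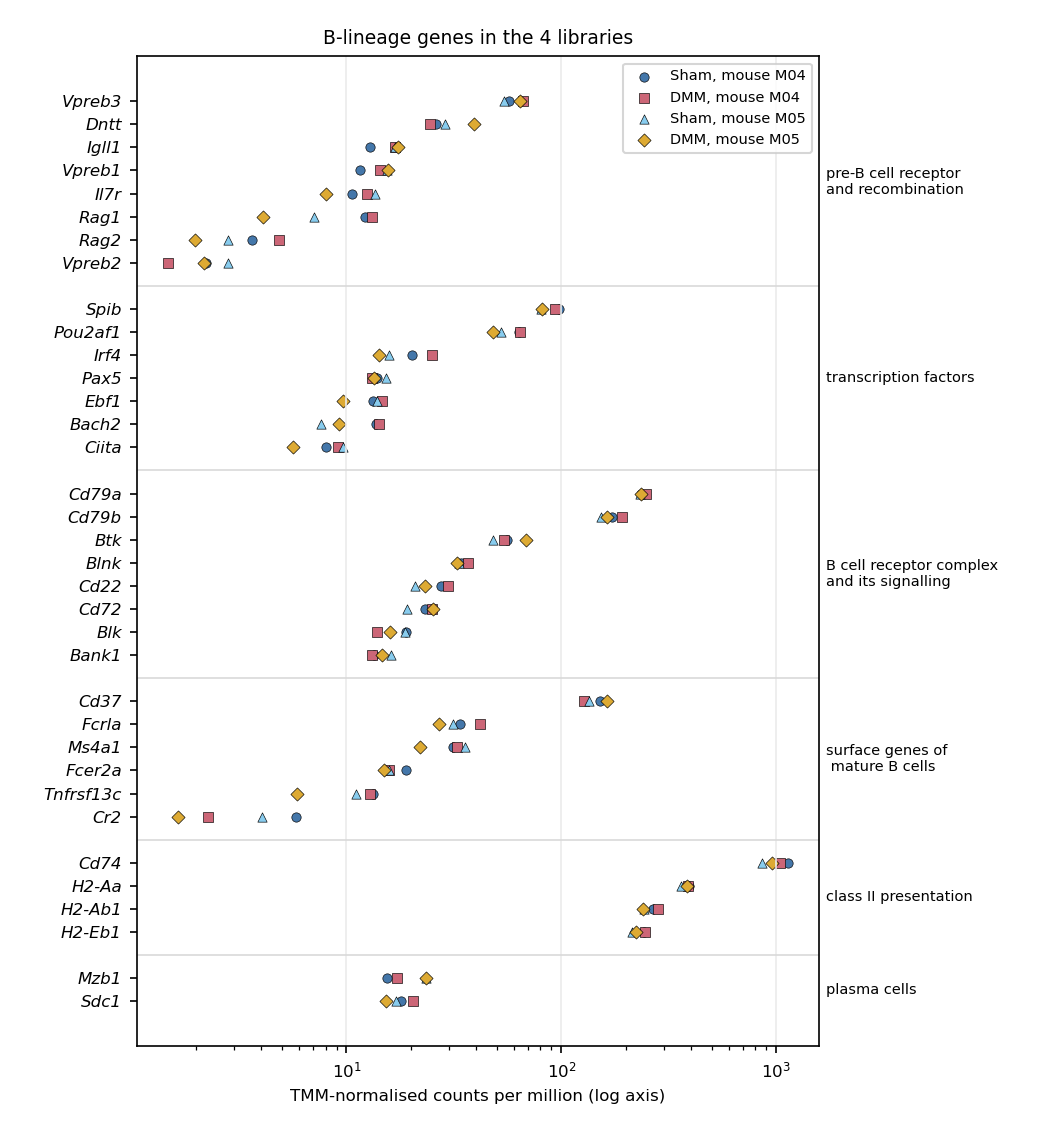
TMM-normalised CPM of the 35 B-lineage genes (log axis) in the 4 libraries, 1 symbol per library, grouped by role and ordered by mean within a role. Cd79a spans only 232 to 247, whereas Rag1 spans 4.11 to 13.2 and Cr2 1.64 to 5.85.

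The first comparison asked whether B-lineage transcripts differ between DMM and sham knees. None of the 35 genes, all of which were tested, passed an adjusted p of 0.05 in either direction by edgeR's quasi-likelihood test with the mouse as a block, against 0.649% of all 13103 genes tested. At an unadjusted p under 0.05 there was 1 member, Cr2, against 5.2% of all genes. DESeq2 with the same terms gave 32 members an adjusted p and called 0, against 0.138% of the 9447 genes with one. At an unadjusted p under 0.05 it had 1 member, against 1.14% of all genes. The members' log2 fold changes had a median of 0.02, against -0.01 over all genes tested. Of the 35 members, 34 (97.1%) lay within 0.5 of 0, against 86.4% of all genes. Both DMM libraries lay above both sham libraries for 2 members (13.2% of all genes) and below them for 5 (12.4% of all genes). Of the cell-type lists, 7 of 13 tested chondrocyte genes and 2 of 7 osteoblast genes passed by edgeR as higher in DMM knees, against 0.633% of all genes. Among 11 tested erythroid genes 0 passed in either direction, against 0.649% of all genes. The part of these cells in the members' values was not tested.

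**Figure D2:**
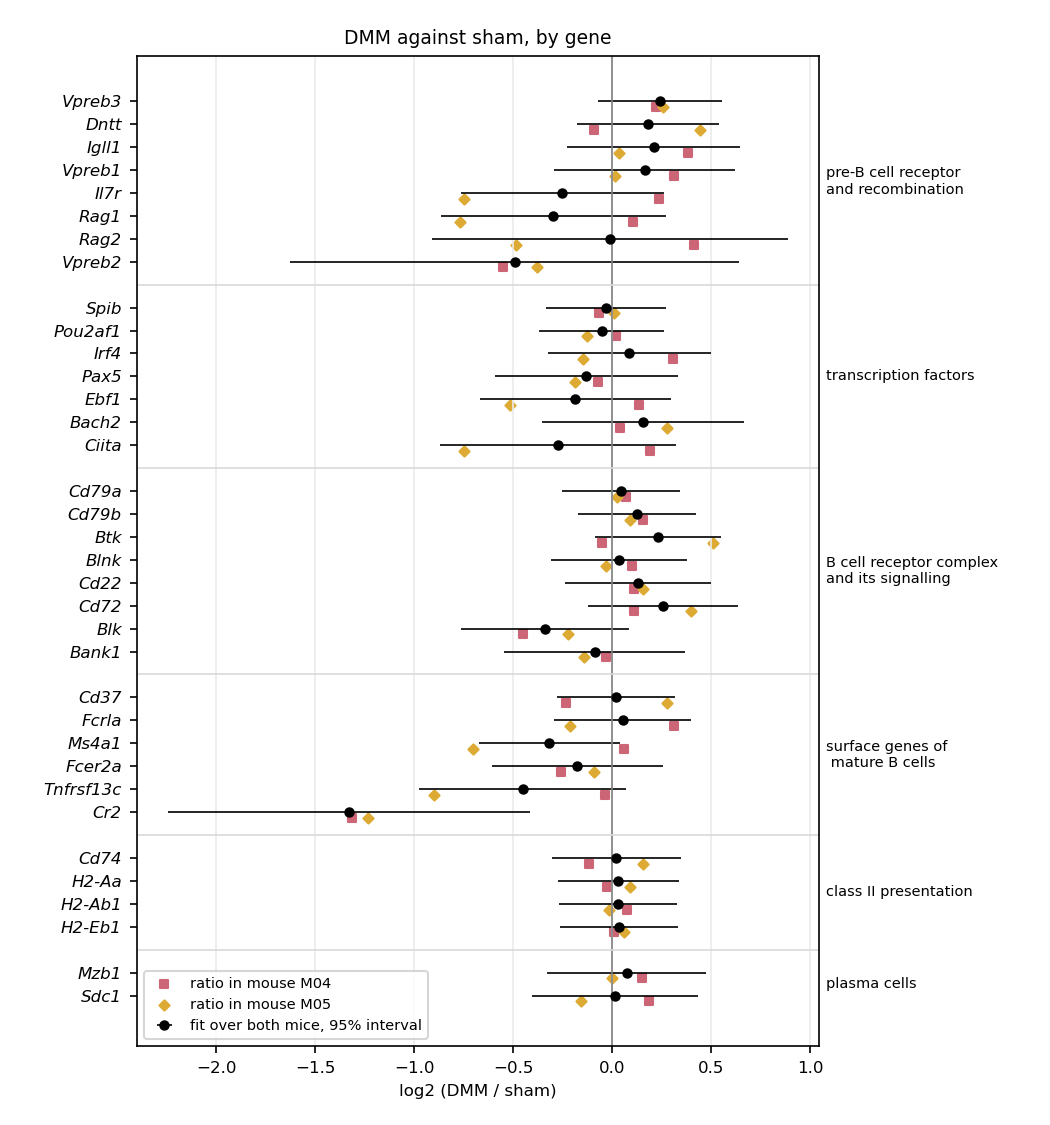
Log2 ratio of DMM to sham for each B-lineage gene: the black point is the fit over both mice with its 95% interval, and the coloured symbols are the ratios in M04 and M05. Fitted values run from -1.33 for Cr2 to 0.25 for Cd72, and the intervals of 33 of 35 genes lie within 1 of 0.

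A p-value that misses the threshold does not show that a gene is equal in both kinds of knee, and the 95% intervals give the range left. They lay within 1 log2 unit of 0 for 33 of 35 members and within 0.5 for 14. For 26 members the spread behind the interval came wholly from the trend across genes, since 4 libraries leave 1 residual degree of freedom. For the other members it came almost wholly from that trend, with 10740 or more moderated degrees of freedom in total.

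Among the early genes, none of the surrogate light chain genes passed. Vpreb1 had 11.6 and 14.4 in M04 and 15.4 and 15.6 in M05, a log2 fold change of 0.16 (95% interval -0.30 to 0.62). Igll1, the gene of lambda5, had 12.9 and 16.9 in M04 and 16.9 and 17.3 in M05 (log2 0.21, -0.23 to 0.64). For both genes the sham library of M04 was the lowest and the other 3 lay close together. Vpreb2 had 2.22 and 1.47 in M04 and 2.81 and 2.18 in M05, a log2 fold change of -0.49 with a wide interval of -1.63 to 0.64, and its DMM libraries were below its sham libraries. This is the second largest size among the members, and the values differ between the count and FPKM tables. Vpreb3 had 57.0 and 66.5 in M04 and 54.0 and 64.5 in M05, and its DMM libraries were above its sham libraries (log2 0.24, -0.07 to 0.55, not past the threshold).

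The recombination genes gave ratios of either sign. Rag1, which with Rag2 makes the enzyme that cuts immunoglobulin genes, had 12.2 and 13.2 in M04 and 7.10 and 4.11 in M05. Rag2 had 3.63 and 4.88 in M04 and 2.81 and 1.97 in M05. Both had a DMM to sham log2 ratio above 0 in M04 (0.11 and 0.41) and below 0 in M05 (-0.77 and -0.49). Dntt, whose product adds bases at the joints, was the other way round with 26.1 and 24.5 in M04 and 28.7 and 39.1 in M05. Il7r, part of the receptor for a cytokine that keeps early B cells alive, had 10.6 and 12.5 in M04 and 13.6 and 8.05 in M05, lowest in the DMM library of M05. Il7r is also made by T cells, and their part in its values was not tested.

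The transcription factors of the list, which include factors of B-cell identity, had log2 fold changes between -0.27 and 0.16. Pax5, which commits cells to the lineage, had 13.9 and 13.2 in M04 and 15.2 and 13.4 in M05 (log2 -0.13, -0.59 to 0.33). Ebf1, which acts with it, had 13.3 and 14.6 in M04 and 13.9 and 9.69 in M05, so that the DMM library of M05 stood below the other 3. Spib had 97.6 and 93.1 in M04 and 80.7 and 81.1 in M05, and Pou2af1, a co-activator of octamer-binding factors, 63.5 and 64.3 in M04 and 52.4 and 48.0 in M05. For Spib and Pou2af1, and also for Bach2 and Irf4, the libraries separated by mouse and not by surgery. Both M05 libraries lay below both M04 libraries, as for 22.8% of all genes. Ciita, the master activator of class II genes, had 8.00 and 9.16 in M04 and 9.62 and 5.67 in M05, and Irf4 a log2 fold change of 0.09.

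The receptor chain Cd79a varied least of all members between libraries, with a coefficient of variation of 2.84% in FPKM. It had 236 and 247 in M04 and 232 and 236 in M05 (log2 0.05, -0.25 to 0.34), and Cd79b had 172 and 192 in M04 and 153 and 164 in M05 (log2 0.12, -0.17 to 0.42). As the products form a dimer, their FPKM ratio was also taken: Cd79b stood at 0.832 and 0.884 of Cd79a in M04 and at 0.752 and 0.789 in M05. Of the signalling genes behind them, the adaptor gene Blnk had a log2 fold change of 0.03, the kinase genes Btk and Blk 0.23 and -0.34, and the adaptor gene Bank1 -0.09. The inhibitory co-receptor genes Cd22 and Cd72 had 0.13 and 0.25. Btk had 55.9 and 54.0 in M04 and 48.1 and 68.6 in M05, Blnk 34.3 and 36.7 in M04 and 33.3 and 32.6 in M05 and Cd22 27.5 and 29.6 in M04 and 20.9 and 23.2 in M05. Btk is also expressed by myeloid cells, whose part in it was not tested. For Bank1 the levels were 13.4 and 13.1 in M04 and 16.1 and 14.6 in M05. For Blk both DMM libraries were below both sham libraries, with 19.04 and 13.9 in M04 and 18.6 and 15.9 in M05, and for Cd72 above them, with 23.2 and 25.1 in M04 and 19.2 and 25.3 in M05.

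Genes of mature B cells, most of them for surface proteins, held the largest fold change in size among the members. Cr2, which binds complement fragments, had 5.85 and 2.27 in M04 and 4.05 and 1.64 in M05. In both mice the DMM knee was lower, with log2 ratios of -1.31 and -1.23, on 79 and 34 counts in M04 and 69 and 20 in M05. Its fitted log2 fold change was -1.33 (95% interval -2.25 to -0.41), and the adjusted p of 0.334 by edgeR did not pass. Ms4a1, the gene of CD20, had 31.4 and 32.8 in M04 and 35.8 and 21.9 in M05 (log2 -0.32), and Tnfrsf13c, the receptor for the survival factor BAFF, 13.3 and 12.9 in M04 and 11.1 and 5.91 in M05 (log2 -0.45). In both of these the DMM library of M05 was the lowest of the 4. Fcer2a, the low-affinity IgE receptor, had a log2 fold change of -0.18, Fcrla 0.05 and Cd37 0.02. Their levels were 18.97 and 15.8 in M04 and 15.8 and 14.9 in M05 for Fcer2a, 33.9 and 42.1 in M04 and 31.4 and 27.1 in M05 for Fcrla and 151 and 128 in M04 and 135 and 163 in M05 for Cd37.

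Class II genes had the narrowest range of fold changes. The log2 values were 0.02 for Cd74, 0.03 for H2-Aa, 0.03 for H2-Ab1 and 0.03 for H2-Eb1, each with a 95% interval inside -0.31 to 0.35. Cd74 had 1134 and 1045 in M04 and 859 and 958 in M05, and H2-Aa 395 and 387 in M04 and 360.4 and 384 in M05. H2-Ab1 had 267 and 281 in M04 and 243 and 240.2 in M05, and H2-Eb1 243 and 244 in M04 and 214 and 223 in M05. Both M05 libraries were below both M04 libraries in all 4 genes, as in 22.8% of all genes. The beta chain H2-Ab1 stood at 0.629 and 0.674 of its alpha chain H2-Aa in M04 and at 0.620 and 0.581 in M05, in FPKM. Class II genes are also expressed by macrophages and dendritic cells, and how much of these counts came from B cells was not tested. Of the plasma-cell genes, Mzb1, an endoplasmic reticulum protein for antibody assembly, had 15.4 and 17.1 in M04 and 23.6 and 23.6 in M05 (log2 0.07), and Sdc1, the surface proteoglycan CD138, 18.0 and 20.5 in M04 and 17.1 and 15.3 in M05 (log2 0.01). Both separated by mouse, Mzb1 being higher in M05, as were 22.5% of all genes, and Sdc1 lower, as were 22.8%.

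Summed by role, the 8 early genes had 136 and 154 in M04 and 141 and 153 in M05. For 7 transcription factors the sums were 230.4 and 234 in M04 and 195 and 181 in M05, and for 8 receptor and signalling genes 582 and 612 in M04 and 542 and 579.7 in M05. Surface genes, 6 in number, summed to 254 and 234 in M04 and 233 and 234 in M05 and the 4 class II genes to 2038 and 1957 in M04 and 1676 and 1805 in M05. All 35 together held between 0.249% and 0.364% of a library's total count. On that scale the DMM to sham log2 ratio of their sum was 0.09 in M04 and 0.20 in M05, while the median of all genes tested moved by 0.10. With the 12 haemoglobin rows left out of the total, the ratios were -0.0044 and 0.07.

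Other lists, of B-cell genes and of their stromal niche, leave out the members. They gave no call for surgery by edgeR either, against 0.649% of all genes. None passed by edgeR among 29 tested genes of receptor signalling and co-receptors (median log2 -0.12), 17 lineage factors (-0.03), 18 genes of early progenitors and pro-B cells (-0.04), 12 class II genes (0.06), 8 plasma-cell genes (0.03) and 9 genes of the stromal niche (-0.16). Over these 93 genes, 3 had an unadjusted p under 0.05 by edgeR, against 5.2% of all genes. DESeq2, with an adjusted p for 81, called 0, against 0.138% of all genes with one. It had 0 under an unadjusted p of 0.05, against 1.14% of all genes. Cxcl12, the stromal chemokine that holds B-cell precursors in marrow, had 694 and 684 in M04 and 663 and 598 in M05 (log2 -0.08).

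To test whether the mice differed in response, the DMM knee of M04 and the sham knee of M05 were set against the other pair. This is the only such test that 4 libraries allow, and effects of mouse and surgery counted as spread in it. A lack of calls therefore does not show an equal response. By edgeR's quasi-likelihood test 0 of 35 members passed, against 0.0153% of all genes, and 0 had an unadjusted p under 0.05, against 2.34%. DESeq2 called 0 members as well, against 0.117% of all genes, with 0 under an unadjusted p of 0.05, against 1.15% of all genes. The DMM to sham ratio had the same sign in both mice for 16 of 35 members and for 47.1% of all genes.

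The second comparison set M05 against M04. Of the members, Rag1 passed, and it was lower in M05. The log2 difference was -0.77 between the sham and -1.65 between the DMM knees, with a fitted value of -1.21 (SE 0.29, 95% interval -1.78 to -0.63, adjusted p = 0.00452 by edgeR). This makes 1 of 35 members lower, against 1.64% of all genes, and 0 higher, against 0.962%. At an unadjusted p under 0.05 there were 9 of 35 members by edgeR, against 14.3% of all genes. DESeq2 gave 7 of 35 members an adjusted p, Rag1 not among them, and called 0 of these, so that it bears on few members. Of the 853 genes with an adjusted p, DESeq2 called 9.14% higher and 1.99% lower. At an unadjusted p under 0.05 it had 1 member, against 4.42% of all genes. In fits with the mouse alone, the call on Rag1 was kept without the sham library of M05 (-1.63, adjusted p = 0.0364) and lost without the sham library of M04 (-1.21, adjusted p = 0.775), the DMM library of M04 (-1.12, adjusted p = 0.552) or the DMM library of M05 (-0.84, adjusted p = 0.142). It was lost with all 4 libraries too when the surgery term was left out (-1.16, adjusted p = 0.135).

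Rag2 had a log2 difference of -0.82 (95% interval -1.74 to 0.10, adjusted p = 0.434), on 49 and 73 counts in M04 and 48 and 24 in M05. Both M05 libraries lay below both M04 libraries. Bach2, a repressor that holds B cells back from the plasma-cell fate, had 13.8 and 14.1 in M04 and 7.59 and 9.28 in M05 (log2 -0.73, adjusted p = 0.108). Tnfrsf13c stood at -0.67 (adjusted p = 0.18). Irf4, a factor of late B cells and plasma cells, had 20.3 and 25.1 in M04 and 15.8 and 14.2 in M05 (log2 -0.59, adjusted p = 0.104). At the high end were Mzb1 with 0.54 (adjusted p = 0.148), Vpreb2 with 0.43 (adjusted p = 0.817) and Dntt with 0.41 (adjusted p = 0.248). None of these genes passed.

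Over all members the log2 difference had a median of -0.18, against -0.01 for all genes tested. Of the 35 members, 25 (71.4%) were below 0, against 50.9% of all genes. Both M05 libraries lay below both M04 libraries for 17 members (22.8% of all genes) and above them for 5 (22.5% of all genes). The 17 included the 4 class II genes, with log2 differences of -0.26 for Cd74, -0.18 for H2-Ab1, -0.16 for H2-Eb1 and -0.07 for H2-Aa and adjusted p-values from 0.502 to 0.909. Scaling by library totals alone moved the median of all genes to -0.25 and called 7 of 35 members lower, against 6.8% of all genes. Of the marker lists, 10 of 13 tested chondrocyte genes and 1 of 7 osteoblast genes were lower in M05, against 1.64% of all genes. Higher were 2 of 13 neutrophil genes, against 0.962% of all genes. The part of these cells in the members' values was not tested.

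The difference between the mice also moved with transcript length, over all genes and among the members. Across 12208 genes with a known length the Spearman correlation was -0.44, longer transcripts being lower in M05, and across the 35 members it was -0.53. Both are descriptions over genes that share the same 4 libraries. In 4 groups of equal size by length, the median log2 difference of all genes was 0.19 in the shortest, up to 1.99 kb, then 0.03 and -0.07, and -0.23 in the longest, above 4.64 kb. The members' medians in the same groups were -0.07 (13 genes), -0.12 (10 genes), -0.25 (5 genes) and -0.50 (7 genes). Rag1 has 6.61 kb, and the 500 genes nearest to it in length had a median of -0.24. In a fit with offsets that remove each library's trend with length, chosen after seeing the data, Rag1 stood at -0.97 with an adjusted p of 0.0868, so that 0 members passed by edgeR, with 9 at an unadjusted p under 0.05, against 8.31% of all genes in that fit. Pax5, whose longest coding transcript has 8.00 kb, stood at 0.08. Its mean of 13.9 CPM went with 11.5 FPKM, while for Rag1 9.15 CPM went with 1.42 FPKM. The length behind the FPKM of Pax5 was therefore shorter than 8.00 kb. For surgery the Spearman correlation with length was -0.09 over all genes and -0.35 across the 35 members. The members' median log2 fold changes for surgery were 0.05, -0.01, -0.01 and -0.19 from the shortest to the longest group.

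**Figure D3:**
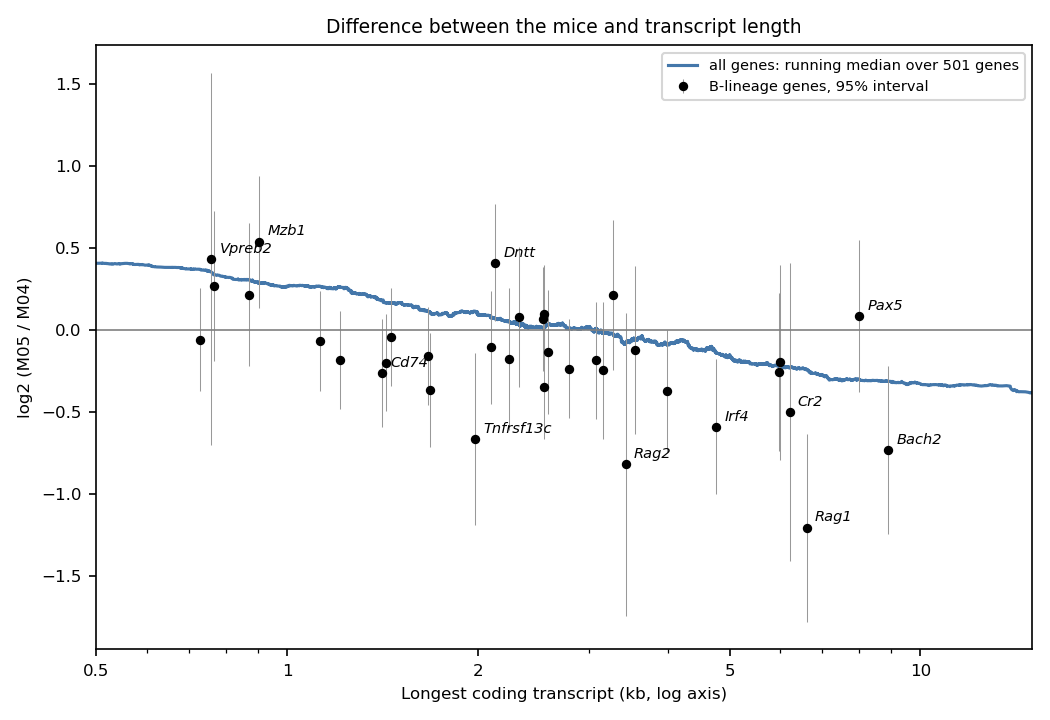
Log2 ratio of M05 to M04 of the B-lineage genes (points with 95% intervals) against the length of the longest coding transcript in kb (log axis), with the running median of all genes tested as a line. The line falls with length, and Rag1 at -1.21 is the lowest point.

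The 93 tested genes of the other lists included 9 of the stromal niche. By edgeR 4 of the 93 were lower in M05 and 0 higher, against 1.64% and 0.962% of all genes. At an unadjusted p under 0.05 by edgeR there were 20, against 14.3%. DESeq2 gave 13 of the 93 an adjusted p and called 0 of these, against 9.14% higher and 1.99% lower of all genes with one. At an unadjusted p under 0.05 it had 7 of the 93, against 4.42% of all genes. Those lower by edgeR were Cd81 (-0.59, adjusted p = 0.0187), a tetraspanin made by many cell types, Jchain (-0.65, adjusted p = 0.00398), which joins antibody units in plasma cells, and, of the early list, Cecr2 (-1.17, adjusted p = 0.00184) and Akap12 (-0.80, adjusted p = 0.00521). Jchain had 89.1 and 99.4 in M04 and 66.4 and 53.9 in M05. Cecr2 and Akap12 have transcripts of 9.21 and 6.20 kb, Cd81 and Jchain of 1.53 and 1.39 kb.

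Promoters of the members were searched for 3 short motifs known from B-cell and class II genes. By symbol, 28 of the 35 genes were matched to RefSeq start sites on GRCm38.p6, a different build from the GRCm39 named for the counts, and 300 bases per start site were searched on both strands. Ciita, Cd79b, Blk, Ms4a1, Cd74, H2-Ab1 and Mzb1 were not matched and not searched. The Y box of class II promoters (CTGATTGG) was found in 3 of the 28 members, H2-Aa, H2-Eb1 and Fcer2a, and in 4.70% of all 27025 genes (4.10% of 32851 promoters). It began 51 bases before the start site in H2-Aa and 62 in H2-Eb1. The octamer (ATGCAAAT) was found in Vpreb3 and Blnk (1.97% of all genes, 1.74% of promoters), and an EBF1 motif (TCCCNNGGG) in Cd22 and Sdc1 (7.48% of all genes, 6.56% of promoters). In Cd22 the EBF1 letters match on both strands and overlap. A match is a description of letters only. The 250 bases before the start site follow for the pair of class II genes with the Y box at a like distance, the heavy-chain partner gene with an octamer and the co-receptor with an EBF1 match, 5′ to 3′ on the gene's strand with matches in capitals. H2-Aa lies at chr17:34287824-34288073 on the minus strand, H2-Eb1 at chr17:34305617-34305866 on the plus strand, Vpreb3 at chr10:75948050-75948299 on the plus strand and Cd22 at chr7:30879029-30879278 on the minus strand.
H2-Aa: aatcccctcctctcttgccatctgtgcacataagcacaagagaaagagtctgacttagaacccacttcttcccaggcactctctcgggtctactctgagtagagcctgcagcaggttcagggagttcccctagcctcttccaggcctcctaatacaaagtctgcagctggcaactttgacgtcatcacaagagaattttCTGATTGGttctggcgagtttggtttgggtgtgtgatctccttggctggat
H2-Eb1: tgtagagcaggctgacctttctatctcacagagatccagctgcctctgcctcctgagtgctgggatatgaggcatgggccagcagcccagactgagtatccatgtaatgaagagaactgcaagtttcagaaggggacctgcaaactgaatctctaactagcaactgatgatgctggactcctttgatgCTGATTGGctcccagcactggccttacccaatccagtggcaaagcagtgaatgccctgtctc
Vpreb3: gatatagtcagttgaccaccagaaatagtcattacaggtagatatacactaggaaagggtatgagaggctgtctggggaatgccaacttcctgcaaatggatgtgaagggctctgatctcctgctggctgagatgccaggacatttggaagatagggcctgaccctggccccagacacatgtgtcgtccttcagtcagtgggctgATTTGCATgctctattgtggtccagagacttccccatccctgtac
Cd22: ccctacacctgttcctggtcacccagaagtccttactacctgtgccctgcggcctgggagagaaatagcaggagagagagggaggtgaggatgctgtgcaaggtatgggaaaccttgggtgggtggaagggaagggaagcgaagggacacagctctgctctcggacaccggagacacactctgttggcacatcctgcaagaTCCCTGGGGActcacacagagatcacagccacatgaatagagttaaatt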

How the data were processed

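RNA was measured in 4 libraries of superficial-zone cartilage, a sham and a DMM knee of each of 2 mice. Per the labels' protocols, poly(A) RNA was sequenced as single-end reads of 100 bases, and the build was GRCm39 per the submitters' processing notes. The sources used here name no aligner, counter or strand setting. The authors deposited estimated counts per gene, 9.21% to 10.9% of them not whole, and each library is listed in 2 columns with all 24421 values equal, so each was counted once. The authors also deposited FPKM values, used for levels per length and for alternatives.

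Counts were rounded and fitted across all genes with edgeR 4.0.16 (R 4.3.3): filterByExpr, TMM, robust quasi-likelihood, with mouse and surgery as terms and Benjamini-Hochberg adjustment over 13103 genes at 0.05. Per the labels, both knees with a number are of the same animal, so the mouse was fitted as a block. Deviations of same-mouse libraries correlated at 0.13. Intervals of 95% use the moderated degrees of freedom, and per-mouse ratios a prior count of 2. Alternatives used DESeq2 1.42.0 and limma 3.58.1, the latter on log2(FPKM + 0.1) and log2(FPKM + 1). Transcript lengths and the Vpreb sequences came from GENCODE M21 and promoters from RefSeq on GRCm38.p6. With 2 animals, p-values speak only of the spread between these 4 libraries. In the main edgeR fit that spread was taken wholly from the trend across genes for 83.0% of genes tested.

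All members are named, by role. From other lists, genes past the threshold or among the 3 highest in mean CPM could be named. Settings tried included no block, library totals, other filters, no haemoglobin rows and leaving out each library. Members and lists were chosen with earlier results known. The result for 1 marker gene is not reported here. Counting intervals and floors are not given, since no member was at 0.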

Additional observations from a re-analysis of the deposited data

How the results depend on the processing

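No member passed for DMM against sham, or for the test of unequal response, under any setting tried for it. For M05 against M04 no member was higher under any setting. The number lower, 1 with mouse and surgery as terms, was 0 with the surgery term left out, 0 with DESeq2 (which gave 7 of 35 members an adjusted p), 0 with limma on either FPKM scale, 0 with offsets for transcript length (chosen after seeing the data) and 7 with library totals alone, and it ranged from 0 to 1 over the fits that leave out a library. Without the surgery term Rag1 stood at -1.16 (adjusted p = 0.135). For DMM against sham, the fit with no replicate block, which leaves out the mouse, called 0 members, as did the paired fit. The mean log2 ratio of DMM to sham of summed counts, per total count and not TMM-normalised, changed without the haemoglobin rows in the total. It went from 0.26 to 0.15 for the early genes, from 0.07 to -0.038 for transcription factors and from 0.20 to 0.090 for receptor genes. For the genes of mature B cells it went from 0.06 to -0.051. For all members it went from 0.14 to 0.035, and without class II from 0.16 to 0.047. These differ by the change of total alone. Among the members, 5 changed sign for surgery and 8 for the mouse in at least 1 of the 10 settings that keep all libraries, and 23 and 10 when a library was left out. Over all genes, the calls for surgery (83 higher and 2 lower) were 0 and 0 without the mouse block, 13 and 0 with DESeq2, 53 and 0 with library totals, 23 and 0 without haemoglobin rows, 0 and 1 with limma on either scale and 52 and 0 with length offsets. Those for the mouse (126 and 215) were 0 and 0 without the surgery term, then 78 and 17, 21 and 891, 36 and 75, 0 and 0, and 21 and 58 in the same order of settings, and 237 and 332 at an adjusted p of 0.1. Without 1 library, surgery gave 0 to 95 higher and 0 to 26 lower, and the mouse 0 to 200 higher and 0 to 131 lower. The cause was not tested. Depth limits Cr2, Rag2 and Vpreb2 most, at 20 to 79 counts per library.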

Other observations

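The deposited tables disagreed on Vpreb2. By counts the sham knee of M04 had 1.51 times the normalised CPM of the DMM knee, and by FPKM 7.08 times (6.25 against 0.883 FPKM). Relative to its counts, the FPKM of Vpreb2 spread over 2.21 log2 units between the libraries, the only member above 0.5, while 98.5% of 8697 genes above 5 normalised CPM in every library stayed within 0.5. Vpreb2 lies below that level. Of 1488 genes between 1 and 5 normalised CPM in every library, leaving out 81 listed at 0 FPKM in some library, 87.6% stayed within 0.5 and 19, Vpreb2 included, spread as widely as Vpreb2 or more. Values of Vpreb2 in either table are therefore uncertain.

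Ratios between genes that work together are given with no test. Igll1 stood at 1.05 of Vpreb1 in FPKM in both libraries of M04 and at 0.933 and 0.989 in M05, but Rag2 stood at 0.602 and 0.751 of Rag1 in M04 and at 0.804 and 0.973 in M05, on counts as low as 24. In M05 the plasma-cell genes Jchain (log2 -0.65) and Mzb1 (0.54, not past the threshold) stood on opposite sides of 0. Both have short transcripts, of 1.39 and 0.904 kb.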
